A study of Mus musculus with 6 samples.

Results

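The array used for m6A-modified circular RNAs (circRNAs) in mouse retina also carries oligonucleotide probes for ordinary linear transcripts, and the m6A level read by these probes was examined. Linear-transcript probes were taken by their probe name, the one for Ppara being left out, which gave 49 probes for 49 different transcripts among the 14285 circRNA and linear probes of the array. Each was printed as 10 spots, and each of the other 14236 probes was for a circRNA. By accession, 45 of the 49 matched a gene of the RefSeq table and 4 did not.

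C57BL/6J pups with oxygen-induced retinopathy (OIR) breathed 75% oxygen between postnatal days 7 and 12 and room air before and after. Room air (RA) controls of the same strain were never given oxygen. Whole retinas of both groups were collected on day 17, with the retinas of a pair of mice pooled in each sample, and 3 samples per group were hybridized, 1 to an array. The transfer from high oxygen to room air leaves the partly vessel-free retina short of oxygen and is used as a model of retinal neovascularization, but each sample was a mixture of all retinal cells, so fewer cells of a type and less RNA per cell cannot be told apart.

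N6-methyladenosine (m6A) is written on nascent transcripts by a methyltransferase complex, removed by demethylases and bound by reader proteins that affect splicing, export, translation and decay. It is found in both linear mRNAs and circRNAs. Before labelling, RNA was split by an anti-m6A antibody into a bound fraction (IP, labelled with Cy5) and an unbound supernatant (Sup, labelled with Cy3), and both were treated with RNase R, an exonuclease that degrades linear RNA and spares circles. The linear probes were thus read after a step meant to remove linear RNA. The dyes were not exchanged on any array, so a difference between IP and Sup and one between dyes cannot be told apart.

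The m6A level of a probe was calculated as IP over IP plus Sup after each channel had been scaled to the mean of the m6A spike-in RNAs. On this scale 50% is the level of a probe whose IP to Sup ratio equals that of the spike-in mean, so levels are relative to the spike-ins. A level is a ratio within a probe and was compared between probes, whereas intensities were not. Probe sequences were not used here, and whether a probe also bound RNA of a related gene, or a circRNA of its own gene, was not tested.

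Of the 49 linear probes, 29 had signal well above background in IP or Sup on 3 or more arrays and were analysed. Of these, 18 were well above background in IP and in Sup on every one of the 6 arrays, and probes of that kind are called bright here. A bright probe could still have a low IP signal. Scaled IP was 6.07 to 19.3 for Actb, 7.24 to 13.5 for H2-Q7 and 6.32 to 18.1 for Lhfp, and such levels are less sure. Per array, 51.0% to 67.3% of linear probes were above background in IP and 38.8% to 55.1% in Sup, against 51.3% to 74.5% and 51.3% to 75.4% of circRNA probes. No spot was saturated (0 spots). Not analysed for lack of signal were 20 probes, of which 14 were above background in neither channel on any array. They were those for Dnajc11, Trp53rka, Tyr, Nup50, Bambi, Cav2, Kcnn2, Gabrg1, Mbp, Carhsp1, Cep41, E2f1, Uhrf1bp1l, Atg3, Rab5a, Rps4l, Gsta4 and 3 transcripts that matched no gene. None of the listed genes for photoreceptors (0 of 20), other retinal neurons (0 of 17) or endothelium and angiogenesis (0 of 18) had a linear probe. Of the 11 genes listed for Müller glia and astrocytes only Apoe had one. Apart from Apoe, the tissue could thus not be checked against the listed markers with these probes. The lists of hypoxia and glycolysis genes (0 of 15), m6A writers, erasers and readers (0 of 16) and liver genes (0 of 20) had none, whereas the cytoskeleton (1 of 18), redox (1 of 18), lipid (1 of 27) and MHC (1 of 17) lists had Actb, Prdx2, Apoe and H2-M2. The lists did not hold every gene of their kind: Lhx1, Gpi1 and H2-Q7, for example, had linear probes and were on none of them.

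The median m6A level read by the linear probes was higher than that read by the circRNA probes. The median level over the 29 linear probes was 50.8%, 47.0% and 50.6% in the RA samples and 49.5%, 50.2% and 53.6% in the OIR samples, whereas the median over the 10480 circRNA probes that passed the same filter was 31.2%, 26.5% and 27.0% in RA samples and 26.0%, 24.6% and 30.4% in OIR samples. The linear median was above the circRNA median on all 6 arrays. On the log2 scale the difference between the medians was 0.81 ± 0.102 for RA and 0.93 ± 0.104 for OIR (SD, n = 3 each). It kept its direction but not its size under other processing: with the normexp background correction it was 0.16 in both groups, and without background correction 0.27 and 0.29.

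Among bright probes the difference was smaller. The median of the 18 linear probes was 50.1% ± 2.05 for RA and 50.5% ± 1.28 for OIR, and that of the 5109 bright circRNAs was 33.1% ± 1.16 and 31.7% ± 2.74 (SD, n = 3 each), a log2 difference of 0.60 ± 0.0248 and 0.68 ± 0.117. The linear median lay above the third quartile of these circRNAs on 5 of the 6 arrays. In each linear probe the level was tested against the median level of all 10480 analysed circRNAs on the same array, bright or not. The test was limma over all 10509 probes. At an adjusted p under 0.05, 21 of the 29 linear probes (72.4%) were above that median, 4 (13.8%) were below it and 4 did not pass the test, whereas 41.2% of all tested probes were above and 42.2% below. The 4 that did not pass were Chgb, Gpi1, Acaa2 and Gm9789.

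**Figure D1:**
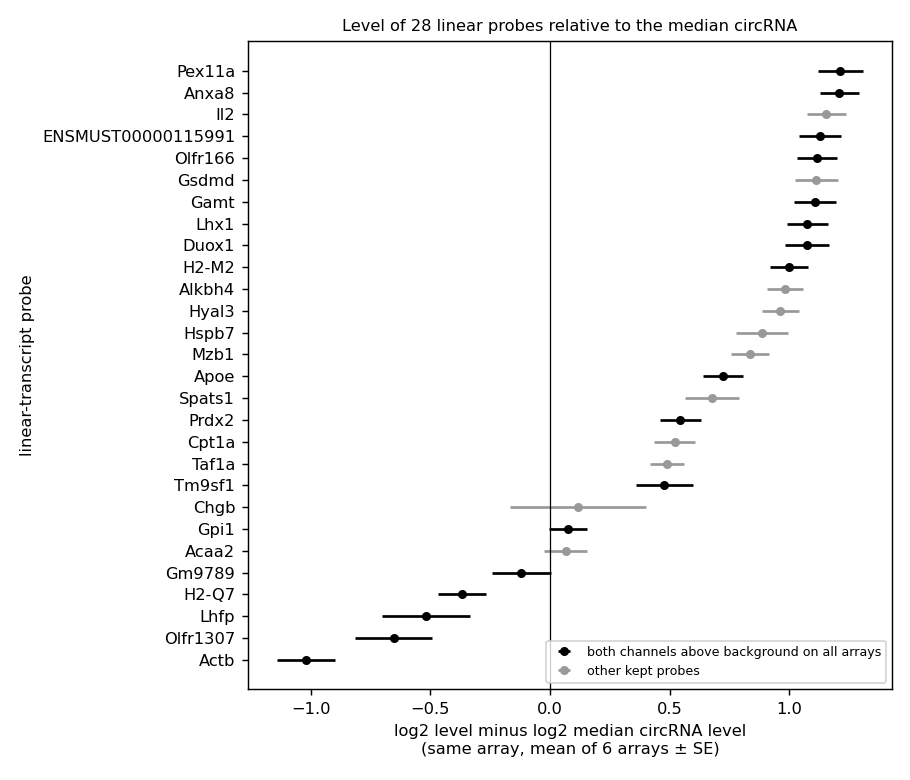
Log2 m6A level of 28 of the linear probes minus the log2 median circRNA level of the same array (x axis, mean over 6 arrays with its SE). Black points are 17 bright probes and grey points the other 11. Points run from 1.21 for Pex11a to -1.02 for Actb, and most lie right of 0.

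The 18 linear probes fell into an order that was much the same on every array, with Spearman correlations of 0.831 to 0.986 between the arrays over these probes, given as a description. They could be divided into 3 ranges of level, and the division was made after the levels were known. In 9 probes every value was between 52.9% and 70.5%, in 3 probes values were between 27.4% and 48.9%, and in 6 probes between 9.82% and 35.8%. Within the ranges most neighbours in the order did not differ beyond their spread over arrays, for example Pex11a and Anxa8, each of them the higher on 3 of 6 arrays, or Lhfp and Olfr1307. Exceptions included Anxa8 above ENSMUST00000115991 and Apoe above Prdx2, each on 6 of 6 arrays. Between the ranges, H2-M2 was above Apoe on 6 of 6 arrays by 0.27 ± 0.103 (SD, log2) and Tm9sf1 above Gpi1 on 6 of 6 by 0.40 ± 0.226. The ranges were drawn from these same values, so these steps describe the division and do not test it.

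**Figure D2:**
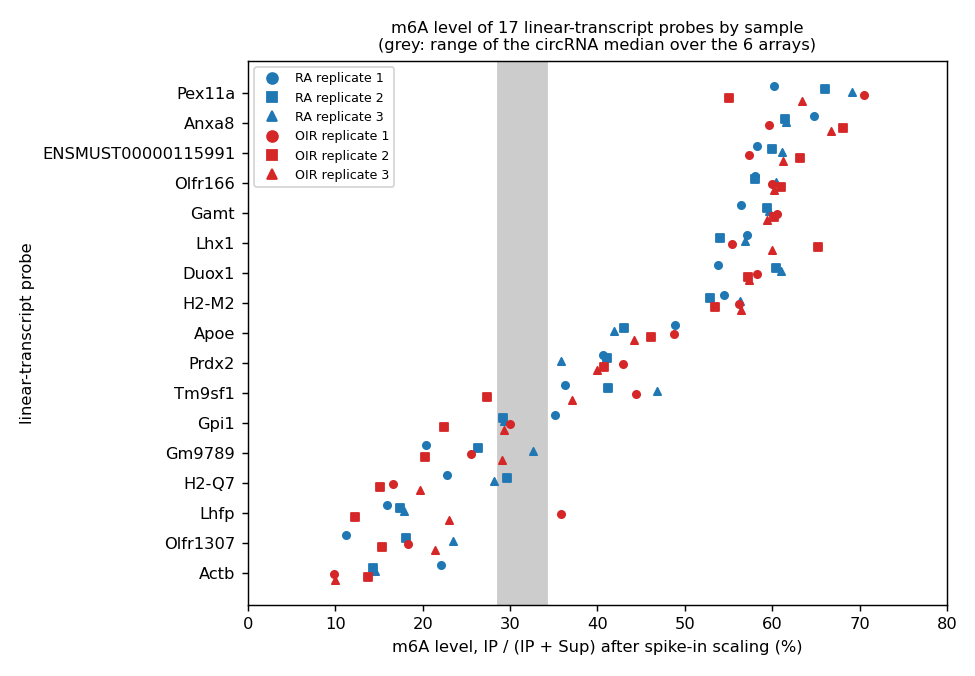
The m6A level in percent (x axis) of 17 of the bright linear probes, with 1 point for each sample (RA blue, OIR red, shape by replicate). The grey band is the range, 28.6% to 34.2%, of the median of the 5109 bright circRNAs. Of the linear probes, 8 lie wholly to the right of 50%, and Actb and Olfr1307 lie wholly to the left of the band.

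The highest range held genes of unlike function. Pex11a, which acts in the division of peroxisomes, had a level of 60.2%, 66.1% and 69.1% in the RA samples and 70.5%, 55.0% and 63.4% in the OIR samples. Anxa8, a calcium-dependent phospholipid-binding annexin, was at 64.8%, 61.5% and 61.6% in RA and 59.6%, 68.0% and 66.7% in OIR. Both groups overlapped in both genes. Relative to the median circRNA they were 2.32-fold higher for Pex11a (adjusted p = 2.16e-05) and 2.31-fold higher for Anxa8 (adjusted p = 1.28e-05), and Anxa8 was higher than 93.4% to 96.5% of the bright circRNAs, depending on the array.

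Lhx1, a homeobox transcription factor of horizontal cells, was in the same range. Its level was 57.1%, 54.1% and 56.9% in RA and 55.4%, 65.2% and 59.9% in OIR. The RA and OIR values overlapped, and the OIR over RA fold was 1.07 (95% confidence interval 0.865 to 1.33).

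Enzymes among the 18 probes differed in level. Gamt, which makes creatine, was at 56.5%, 59.4% and 59.6% in RA and 60.6%, 60.2% and 59.5% in OIR, and Duox1, a dual oxidase that produces hydrogen peroxide, at 53.8%, 60.4% and 61.0% in RA and 58.3%, 57.3% and 57.4% in OIR. Prdx2, a peroxiredoxin that removes hydrogen peroxide, was lower, at 40.7%, 41.1% and 35.8% in RA and 43.0%, 40.8% and 39.9% in OIR. Gpi1, the glycolytic glucose-6-phosphate isomerase, was lower again at 35.2%, 29.2% and 29.3% in RA and 29.9%, 22.4% and 29.3% in OIR, close to the median circRNA (log2 difference 0.08 ± 0.0793 SE, adjusted p = 0.397). In none of these enzymes did the groups separate.

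Apoe, the main lipid carrier of the retina and a product of Müller glia and astrocytes, had a level of 48.9%, 43.1% and 41.9% in the RA samples and 48.8%, 46.2% and 44.2% in the OIR samples. These ranges nearly coincided. Its mean was 44.6% ± 3.74 in RA and 46.4% ± 2.34 in OIR (SD, n = 3 each), an OIR over RA fold of 1.04 (95% confidence interval 0.836 to 1.30, adjusted p = 0.949). The level of Apoe was 1.65-fold above the median circRNA (adjusted p = 0.000137) and that of Prdx2 1.46-fold (adjusted p = 0.000725).

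Genes of one family did not share a level. H2-M2 and H2-Q7 both encode non-classical MHC class I proteins. H2-M2 had a level of 54.4%, 52.9% and 56.3% in RA and 56.2%, 53.4% and 56.4% in OIR, and H2-Q7 one of 22.8%, 29.7% and 28.2% in RA and 16.7%, 15.1% and 19.7% in OIR, so that H2-M2 was the higher in every sample. H2-M2 was above the median circRNA (adjusted p = 2.35e-05) and H2-Q7 1.29-fold below it (adjusted p = 0.0111). How much of the H2-Q7 signal came from related class I genes was not tested.

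The olfactory receptor genes Olfr166 and Olfr1307 differed likewise. Olfr166 was at 58.0%, 58.0% and 60.5% in RA and 60.0%, 61.0% and 60.2% in OIR, while Olfr1307 was at 11.2%, 18.1% and 23.5% in RA and 18.3%, 15.3% and 21.4% in OIR. Olfr1307 was 1.57-fold below the median circRNA (adjusted p = 0.00693). Olfactory receptors are known for their expression in the nose, and what RNA bound these probes in retina was not tested.

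The lowest level was that of Actb, the cytoskeletal beta-actin, with 22.1%, 14.3% and 14.5% in the RA samples and 9.82%, 13.8% and 10.02% in the OIR samples. It was the lowest of the 18 probes on 4 of the 6 arrays and 2.03-fold below the median circRNA (adjusted p = 0.00016). Lhfp, of the tetraspan LHFP family, was at 15.98%, 17.5% and 17.8% in RA and 35.8%, 12.2% and 23.0% in OIR, 1.43-fold below the median circRNA (adjusted p = 0.0315), with OIR replicate 1 far above the other samples. The membrane protein gene Tm9sf1 was at 36.3%, 41.2% and 46.8% in RA and 44.4%, 27.4% and 37.1% in OIR. Of the remaining pair of transcripts, Gm9789 was at 20.3% to 32.6% and ENSMUST00000115991, which matched no gene, at 57.4% to 63.1%.

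The 11 other analysed probes lacked signal above background in IP or Sup on at least 1 array, and their levels were less sure. Il2, a T cell cytokine, had a mean level of 60.0% ± 3.44 in RA and 62.7% ± 4.95 in OIR (SD, n = 3 each). Alkbh4, of the AlkB family of dioxygenases, had 51.3% ± 1.31 and 57.7% ± 2.99, and Mzb1, an endoplasmic reticulum protein of B cells, 49.7% ± 3.42 and 48.8% ± 3.98 (SD, n = 3 each). Both genes of mitochondrial fatty acid oxidation in this set were lower, Cpt1a at 41.0% ± 10.3 and 38.8% ± 2.77 and Acaa2 at 29.5% ± 1.74 and 28.2% ± 2.67.

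Taf1a, a subunit of an RNA polymerase I factor, had 41.9% ± 3.56 in RA and 35.9% ± 4.43 in OIR, and Spats1 42.7% ± 7.23 and 46.3% ± 8.12. For 3 of the 11, namely Gsdmd, which forms pores in pyroptosis, Hyal3, of the hyaluronidase family, and the small heat shock protein gene Hspb7, no array of at least 1 group had a Sup signal well above background. Their means of 57.6% and 62.1%, 52.5% and 54.8%, and 45.2% and 58.0% in RA and OIR are thus uncertain where Sup was not well above background.

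Between the groups, few linear probes differed in m6A level. With the methods' limits of 1.5-fold and p under 0.05, applied to limma's unadjusted p, 2 of 29 (6.9%) were called, H2-Q7 and Actb, both lower in OIR, against 5.03% of all tested probes in either direction, 3.77% in that direction and 1.27% in the other, so the share among linear probes was near the background. After Benjamini-Hochberg adjustment 0 linear probes passed, with 2 at an unadjusted p under 0.05 and a smallest adjusted p of 0.505, and the methods' t-test also gave 0 after adjustment and 1 at the methods' threshold. The median log2 change was 0.039 over the 29 linear probes, with 17 higher and 12 lower in OIR, and -0.0074 over the circRNA probes.

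H2-Q7 had a mean level of 26.9% ± 3.63 in RA and 17.1% ± 2.32 in OIR (SD, n = 3 each), 1.57-fold lower in OIR (log2 -0.65, SE 0.172, limma adjusted p = 0.505). All 3 OIR values were below all 3 RA values. Its scaled IP intensity was 11.6, 9.72 and 9.51 in RA and 7.24, 13.5 and 12.0 in OIR, which overlapped, and its Sup intensity was 39.3, 23.1 and 24.2 in RA and 36.2, 76.1 and 49.1 in OIR, where only OIR replicate 1 lay within the RA range. The abundance of H2-Q7, taken as IP plus Sup, was higher in OIR by 0.69 on the log2 scale without passing the test (limma adjusted p = 0.293). Within the samples scanned on the same day the log2 change in level was -0.71 on the first day (2 samples per group) and -0.52 on the second (1 per group). Without RA replicate 2 or OIR replicate 2 it was -0.57 and -0.56, short of the fold threshold.

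Actb had a mean level of 17.0% ± 4.41 in RA and 11.2% ± 2.22 in OIR (SD, n = 3 each), lower in OIR by 0.59 on the log2 scale (fold OIR over RA 0.666, 95% confidence interval 0.445 to 0.995, limma adjusted p = 0.661). The OIR values were all below the RA values, but the groups were separated by only the gap from 13.8% to 14.3%. Scaled IP intensity was 19.3, 8.01 and 9.10 in RA and 7.31, 8.37 and 6.07 in OIR, and Sup intensity was 68.2, 47.9 and 53.5 in RA and 67.1, 52.4 and 54.5 in OIR. RA replicate 1 had the highest IP of the 6 samples by far, and without it the log2 change in level was -0.38, past neither threshold. The call was lost as well without RA replicate 3 (log2 -0.68), OIR replicate 1 (log2 -0.50) or OIR replicate 3 (log2 -0.52). Within the same scan days the change was -0.61 and -0.54, but the call was lost with scan day as a block, with the methods' t-test and with no filter on dim probes.

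**Figure D3:**
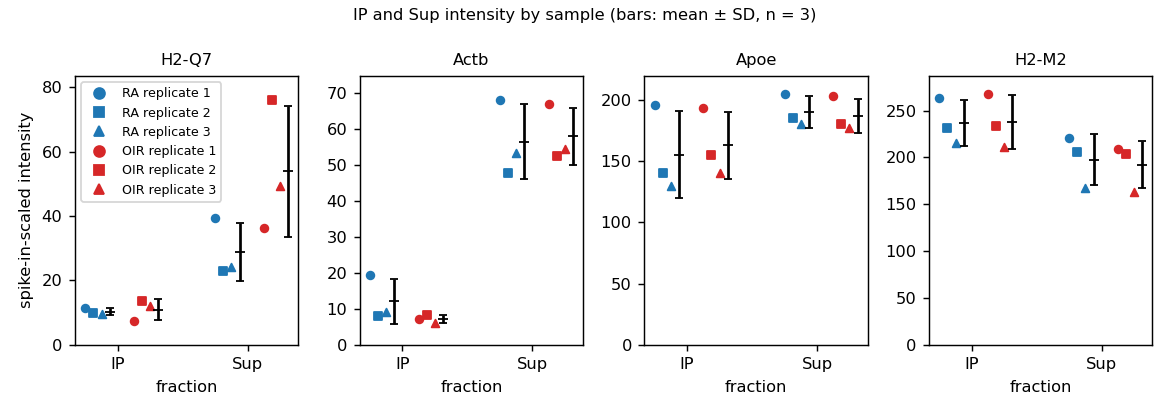
Spike-in-scaled IP and Sup intensity (y axis, arbitrary linear units) of H2-Q7, Actb, Apoe and H2-M2 in each RA (blue) and OIR (red) sample, with black bars for the mean ± SD (n = 3). For H2-Q7 the IP values overlap while the highest Sup values, 76.1 and 49.1, are OIR samples; for Apoe and H2-M2 the groups overlap in both fractions.

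In the other 16 bright linear probes, log2 changes in level were between -0.21 and 0.34, with a smallest adjusted p of 0.868. Standard errors over the 18 probes were 0.114 to 0.384, and the interval of the fold was 0.833 to 1.23 for H2-M2 and 0.850 to 1.30 for Prdx2. That of Lhfp, 0.662 to 2.42, was the widest among the 18. Without OIR replicate 2, Lhfp was called as higher in OIR (log2 0.75), and without OIR replicate 1 its change was -0.024. The Sup intensity of Lhfp was 15.8, 45.3 and 27.4 in OIR replicates 1, 2 and 3, against 40.3 to 95.0 in RA. Groups did not overlap in level for 4 of 29 probes (13.8%), with Alkbh4 and Hspb7 higher and H2-Q7 and Actb lower in OIR, against 12.3% of all probes with a value on every array.

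Neither the amount of m6A-bound linear RNA nor its abundance passed the test in any of the 29 probes. For the m6A quantity, the scaled IP intensity, 0 were called against 16.3% of all probes (15.4% lower in OIR), and for abundance 0 against 12.9%. After adjustment 0 linear probes passed in either measure, against 0.0666% of all probes in quantity and 0 in abundance, and the methods' t-test also gave 0. At an unadjusted p under 0.05, 1 linear probe passed in each, that of Mzb1, by 0.52 for quantity (limma adjusted p = 0.222) and by 0.55 for abundance (limma adjusted p = 0.234). The median log2 change of the linear probes was 0.0037 in quantity and 0.016 in abundance, whereas that of the circRNA probes was -0.22 and -0.23. In quantity the median was -0.022 over the 18 bright linear probes and -0.10 over the 5109 bright circRNAs. In abundance these medians were 0.0013 and -0.12. The groups did not overlap in 2 of 29 probes (6.9%) for quantity and 2 for abundance, against 26.8% and 26.9% of all probes.

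**Figure D4:**
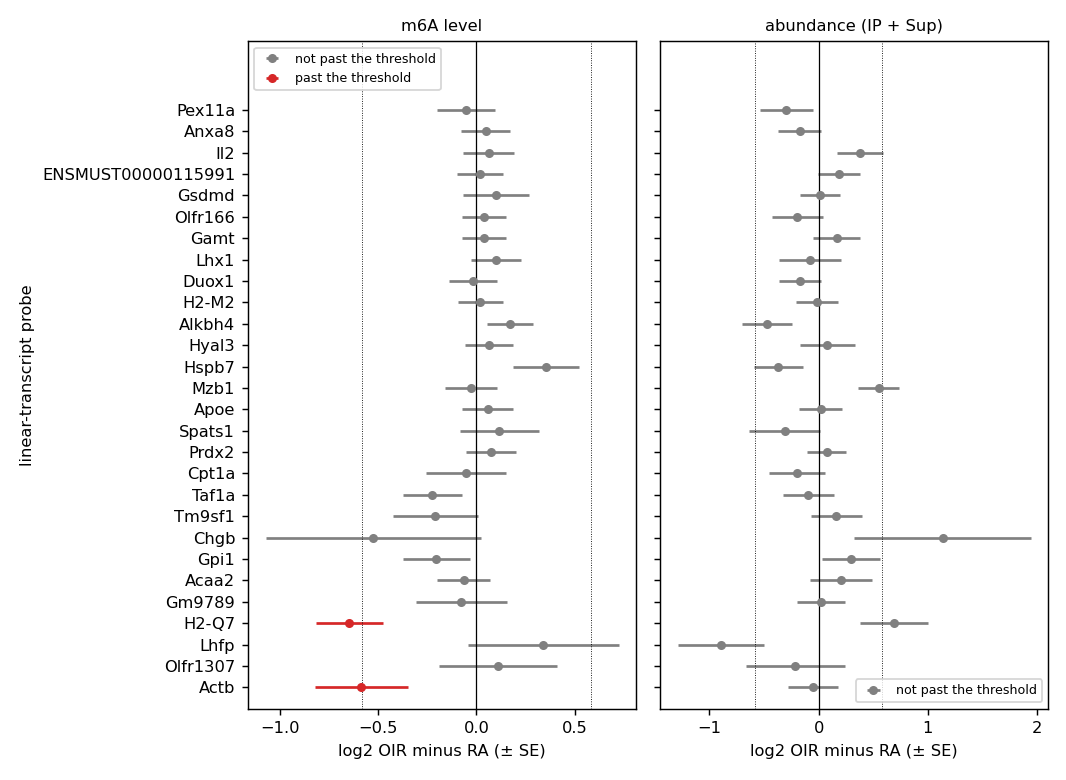
Log2 OIR minus RA change with its SE (x axis) in m6A level (left) and abundance (right) of 28 linear probes, ordered by mean level. Dotted lines mark a fold of 1.5 and red the probes past it with an unadjusted p under 0.05, H2-Q7 (-0.65) and Actb (-0.59) in level and none in abundance.

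Before scaling, the 18 bright linear probes had a median log2 IP to Sup ratio that was 1.01, 0.75 and 0.87 in RA and 0.33, 1.29 and 1.25 in OIR. The spike-in mean was 0.94, 0.87 and 0.78 in RA and 0.21, 1.30 and 1.23 in OIR. The unscaled ratio of the linear probes was thus lowest on the same array as that of the spike-ins, OIR replicate 1, and differed from it by at most 0.12 on any array.

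**Figure D5:**
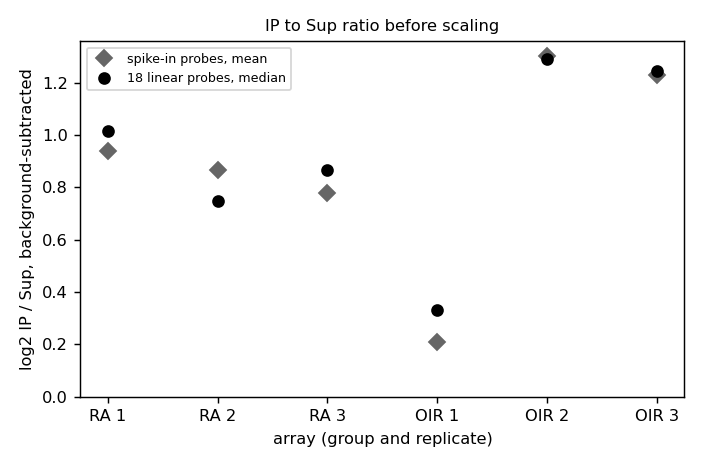
Log2 ratio of IP to Sup before scaling (y axis) on each array, as the median of the 18 linear probes (black circles) and the mean of the spike-in probes (grey diamonds). Both are lowest on OIR replicate 1, at 0.33 and 0.21, and highest on OIR replicate 2, at 1.29 and 1.30.

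Variation between arrays was also measured. The median residual SD of the log2 level within groups was 0.0937 for the 18 linear probes and 0.193 for the bright circRNAs. Each circRNA probe was printed as 1 spot, and with 1 spot used for each linear probe the SD was 0.0829 to 0.1503 over the 10 possible choices. Within an array, the spots of a linear probe differed in the log2 ratio of IP to Sup with a mean SD of 0.0469 for Gamt to 0.269 for Tm9sf1.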

How the data were processed

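Total RNA of 3 RA and 3 OIR retina samples was immunoprecipitated, digested with RNase R, labelled and hybridized, and the authors deposited scanner output of Agilent Feature Extraction 11.0.1.1 per the submitters' processing notes. The deposited intensity values were background-subtracted by that software and not normalized between arrays, and the deposited flags mark spots above background, saturated or outlying. No genome build is given in the sources used here, so no positions are printed.

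Spots that were outliers in either channel were left out. Following the methods, the IP and Sup values of an array were each divided by the average spike-in signal (mean of log2 over 306 spots of 102 probes, read as spike-ins by their names). Spots of a probe were averaged, values under 1 were set to 1, and level (IP over IP plus Sup), quantity (IP) and abundance (IP plus Sup) were computed. A probe was above background on an array if more than 0.5 of its spots were. The 10509 probes that passed the filter were fitted together on the log2 scale in limma 3.58.1 (R 4.3.3, lmFit and eBayes) with Benjamini-Hochberg adjustment over all of them. The methods' threshold is a fold change of 1.5 with p under 0.05 in a Student t-test, which was run as an alternative. The fit was tested on simulated data.

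Samples were grouped by their titles. The labels do not say that samples of a group came from separate litters, so p-values measure the spread between these samples, and the number of arrays limits the precision. Bright probes, above background in IP and Sup on every array, were described sample by sample, other analysed probes by group means, and the rest by name. The values of 1 analysed probe entered every fit and count but are not reported here. The members and gene lists were chosen with earlier results of these data known. Alternatives were other normalizations, background corrections, filters, spot summaries, tests and blocks, and each array left out. RefSeq symbols came from a table of GRCm38.p6. The main fit did not pair samples by replicate number. Deviations of same-numbered samples correlated at -0.17, -0.015 and -0.030 over 10459 probes, which with 3 samples per group cannot exclude a pairing. Scan day followed the number: replicates 1 and 2 of both groups were scanned on the first day and replicate 3 of both on the second.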

Additional observations from a re-analysis of the deposited data

How the results depend on the processing

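The counts of linear probes called were small, and each call rested on few arrays. For level, the 2 calls became 0 without normalization, with centring on the circRNA median, with loess and Aquantile, with the processed signal, with normexp and without background correction. They became 1, with H2-Q7 called and Actb not, with trend and robust estimation, the methods' t-test, the log2 ratio of IP to Sup or scan day as a block, and were 1 to 2 with an array left out. With the replicate number as a block the count was 1, H2-Q7 being called and Actb not, and no other call changed. H2-Q7 and Actb kept their direction under every alternative run, with -0.76 to -0.56 for H2-Q7 and -0.74 to -0.38 for Actb with an array left out, and with normexp they were -0.13 and -0.077. For quantity, 0 calls became 3 with centring on the circRNA median and 3 with loess, all higher in OIR. With no filter, where 49 probes were tested, they became 3, all lower in OIR. They were 0 to 2 with an array left out. For abundance, 0 became 3 with median centring and with loess, all higher in OIR. Over bright probes alone or with trend and robust estimation there were 2, of which 1 was higher and 1 lower. With no filter, medians over spots, the processed signal or no normalization there was 1, lower in OIR. Abundance calls were 0 to 3 with an array left out. There were 3 without RA replicate 1 and 2 without OIR replicate 1, all higher in OIR. Without OIR replicate 2 there were 2, of which 1 was higher and 1 lower. Without RA replicate 2 there was 1, lower in OIR. Quantity calls were 2 without RA replicate 1 and 1 without OIR replicate 2, all higher in OIR. No linear probe passed adjustment (0) under any alternative run. The cause of these shifts was not tested.

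The number of linear probes above the circRNA median was 12 of 18 over bright probes alone, 34 of 49 with no filter and 21 with any array left out, and the number below it was 6 of 18 over bright probes alone, 5 of 49 with no filter, 2 with the processed signal and 3 to 4 with an array left out. With no filter, probes without signal whose IP and Sup were both set to 1 have a level of 50% by construction, above the circRNA median. The counts, medians and differences with no filter are therefore partly set by that minimum. Against the bright circRNAs 20 of 29 were above and 5 below. The median linear level depended on the scaling. In RA and OIR it was 64.0% and 65.8% without normalization, 75.4% and 77.4% with median centring and 69.2% and 66.6% with loess, and in OIR it was 47.9% with the processed signal and with normexp, 48.0% without background correction and 48.1% with no filter. With an array left out it was 48.8% to 50.7% in RA and 49.8% to 51.9% in OIR. The log2 difference from the circRNA median stayed above 0 under every alternative run. In RA and OIR it was 0.62 and 0.70 without normalization, 0.45 and 0.50 with median centring, 0.43 and 0.42 with loess, 0.62 and 0.61 with the processed signal, 0.16 and 0.16 with normexp, 0.27 and 0.29 when background was not corrected, 0.60 and 0.68 over bright probes alone, 0.71 and 0.63 with no filter, and 0.58 and 0.69 against the bright circRNAs. With an array left out it was 0.75 to 0.86 and 0.88 to 0.99.

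Several single probes that were not called turned sign in level. ENSMUST00000115991 became -0.0011 without normalization, -0.019 with loess and -0.0072 with the processed signal. Duox1 became 0.0082 with median centring. With loess, Olfr166 became -0.032, Gamt -0.061, H2-M2 -0.067, Apoe -0.062 and Olfr1307 -0.024. With the processed signal Gamt became -0.061, H2-M2 -0.031 and Apoe -0.026. With normexp Anxa8 became -0.026 and Gm9789 0.0084, the latter 0.0028 without background correction. With an array left out the ranges that crossed 0 were -0.14 to 0.041 for Pex11a, -0.012 to 0.057 for ENSMUST00000115991, -0.075 to 0.016 for Duox1, -0.0016 to 0.045 for H2-M2, -0.25 to 0.088 for Gm9789, -0.024 to 0.75 for Lhfp and -0.18 to 0.35 for Olfr1307. Dim signal limits the 11 probes that were not bright, and low IP signal limits some bright ones, H2-Q7 and Actb among them. No value was given for 20 others.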

Other observations

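Chgb, which encodes a secretory granule protein of neurons and endocrine cells, was read in 2 distinct ways by its probe. Its scaled Sup intensity was 37.8, 4.84 and 4.23 in the RA samples and 6.24, 46.6 and 44.6 in the OIR samples, and 10, 0 and 0 of its 10 Sup spots were well above background in RA and 1, 10 and 10 in OIR. Its IP intensity varied less, at 9.34, 4.29 and 4.09 in RA and 6.10, 8.55 and 11.1 in OIR. Its level was therefore 19.8%, 47.0% and 49.1% in RA and 49.5%, 15.5% and 20.0% in OIR, and 1 RA sample was like 2 OIR samples. The split crossed the groups, and neither its level (adjusted p = 0.905) nor its abundance (adjusted p = 0.459) differed between them in limma. Sup intensities of H2-Q7, Gpi1 and Tm9sf1 were also highest in RA replicate 1 and OIR replicates 2 and 3, by smaller margins. Those of Actb, Apoe and H2-M2 did not follow this order. The cause was not tested.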
